A study of Mus musculus with 14 samples.

Results

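Proteasome genes were followed in RNA-seq libraries of E14 mouse ES cells, a pluripotent line derived from the mouse blastocyst, as the cells went through mTORi, the inhibition of the growth kinase mTOR that places them in a dormant state. The genes were taken by name. Every gene whose symbol begins with Psm, a letter from a to g and a digit was a member, and the 4 entries marked as pseudogenes were left out. This gave 50 genes of the 54446 gene identifiers measured, and 48 of them had a mean of at least 1 TPM (the length-corrected share of a library's transcripts) and entered the tests. The members hold the 31 constitutive subunits of the 26S proteasome, all of which were tested. They also hold 3 immunoproteasome subunits, 2 tissue-specific subunits, 5 activator genes, 1 inhibitor, 7 assembly factors and Psmc3ip, a recombination cofactor that carries the prefix but is no proteasome subunit. Psmb8 and Psmb11 stayed under the limit.

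There were 7 groups of 2 libraries. The wild-type (WT) cells were untreated (0 h) or had been kept in the mTOR inhibitor Ink128 for 24, 72 or 144 h. The *Tet1/2* DKO cells, which were made from E14 cells with Cas9 guides against the DNA demethylase genes Tet1 and Tet2, were untreated or had 24 or 72 h of the inhibitor. Both genotypes share the E14 background and were grown without feeders in serum with LIF, and the knockout cells had been sorted singly and screened as clones, so clone and genotype cannot be told apart. The study gives the replicates as independent biological replicates, and all p-values measure only the spread between these libraries.

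The proteasome is the protease that degrades ubiquitin-tagged proteins in the cytosol and nucleus. Its 20S core is a barrel of stacked rings: the outer rings of alpha subunits (Psma genes) gate the entrance, and the inner rings of beta subunits (Psmb genes) carry the proteolytic sites. The 19S regulatory particle caps the barrel, with a ring of ATPases (Psmc genes) that unfolds the substrate and non-ATPase subunits (Psmd genes) that receive it and remove its ubiquitin. Other caps, the PA28 and PA200 activators (Psme genes), open the core without ubiquitin, and interferon replaces the catalytic subunits by those of the immunoproteasome, which favours the cutting of peptides for antigen presentation. Proteasome genes are known to be transcribed together, and the factor NFE2L1 raises them when proteasome activity falls short.

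Levels are given on 2 scales. Plain TPM are the deposited values, which sum to the same total in each library and so read each gene's share of the measured RNA. Spike-in normalized TPM multiply each library by a factor of its own, from 1 to 2.81, recovered from the values that the authors had scaled to added ERCC control RNAs, and they read the amount relative to the spike-in. The study sorted a set number of cells per sample for RNA extraction, and the step at which the spike-in was added is not given in the sources used here. Within a sample, fewer cells of a type and less RNA per cell cannot be told apart in bulk RNA. The factors differed between replicates, most in the DKO 24 h group (2.24 and 1.36) and least in the WT 0 h group (2.11 in both), so the spike-in scale carries a spread that all genes of a library share. Ratios of genes within a library do not depend on it.

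The 5 ES cell markers Pou5f1, Sox2, Nanog, Zfp42 and Esrrb lay between 215 and 2509 spike-in normalized TPM in all 14 libraries. Tet2 had 96.0 to 143 plain TPM in the 8 WT libraries and 15.9 to 22.2 in the 6 DKO libraries, without overlap, and neither gene total reads the deleted part alone. Tet1 had 191 to 349 plain TPM in WT and 147 to 248 in DKO cells, and 344 to 516 (median 410) and 238 to 602 (median 428) on the spike-in scale, with overlap on both, so only Tet2 separated the genotypes. The leukocyte marker Ptprc stayed at or under 0.0647 spike-in normalized TPM, and of the 4 markers of leukocytes and antigen-presenting cells 2 were under 1 in all libraries and the sum ran from 2.6 to 21.1. Of these Cd74 was lower at 24 h, as Psmb10 and Psme2 were, with 11.7 and 15.5 spike-in normalized TPM at WT 0 h and 1.72 and 2.54 at 24 h, and 13.2 and 18.1 and then 1.59 and 4.05 in DKO cells. H2-Ab1 did not follow, with 1.40 and 0.650 and then 0.601 and 1.91 in WT, and 2.30 and 2.53 and then 2.91 and 1.59 in DKO cells. H2-Aa had 0 and 0.256 and then 0.268 and 0.777 in WT, and 0.714 and 0.477 and then 0.292 and 0 in DKO cells. Of the 4 fibroblast markers 2 were under 1 everywhere, and Thy1 went from 16 and 10.7 at WT 0 h to 3.69 and 2.09 at 24 h and from 27.9 and 40.5 to 5.65 and 9.51 in DKO cells. The summed primitive endoderm markers Gata4, Gata6 and Sox17 were 10.9 and 26 spike-in normalized TPM at WT 0 h and 60.3 and 133 at WT 24 h, and at DKO 0 h and 24 h they were 43.2 and 10.9 and then 64.4 and 14.9. The part of these markers in the proteasome results was not tested.

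Promoter windows of 5 genes are shown because these genes carry the results below: the catalytic subunits Psmb5 and Psmb6, the deubiquitinase Psmd14, which fell most among the 26S subunits at 24 h, the immunoproteasome subunit Psmb10 and the PA28 subunit Psme1. Each window runs from 250 bases before to 50 bases after a gene start, in the RefSeq annotation of GRCm38.p6. Capitals mark matches, on either strand, to 4 motifs: TGACNNNGC (the antioxidant response element core bound by NFE2L1 and NFE2L2), CCAAT (the NF-Y box), CACGTG (the E-box of MYC and TFE3 type factors) and the core of the interferon response element, which is GAAA, any 2 bases and GAAA again.
Psmb5, chr14:54617946-54618245, minus strand: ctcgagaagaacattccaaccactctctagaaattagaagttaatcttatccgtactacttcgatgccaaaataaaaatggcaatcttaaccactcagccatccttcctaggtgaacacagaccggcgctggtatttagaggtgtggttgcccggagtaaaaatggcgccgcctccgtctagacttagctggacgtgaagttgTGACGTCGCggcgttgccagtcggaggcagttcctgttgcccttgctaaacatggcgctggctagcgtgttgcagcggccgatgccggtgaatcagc
Psmb6, chr11:70525107-70525406, plus strand: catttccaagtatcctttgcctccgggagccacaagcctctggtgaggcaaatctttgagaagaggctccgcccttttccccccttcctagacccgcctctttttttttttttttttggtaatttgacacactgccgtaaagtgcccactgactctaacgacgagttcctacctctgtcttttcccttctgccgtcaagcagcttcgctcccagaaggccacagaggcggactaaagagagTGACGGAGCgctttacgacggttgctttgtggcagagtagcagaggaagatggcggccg
Psmd14, chr2:61711444-61711743, plus strand: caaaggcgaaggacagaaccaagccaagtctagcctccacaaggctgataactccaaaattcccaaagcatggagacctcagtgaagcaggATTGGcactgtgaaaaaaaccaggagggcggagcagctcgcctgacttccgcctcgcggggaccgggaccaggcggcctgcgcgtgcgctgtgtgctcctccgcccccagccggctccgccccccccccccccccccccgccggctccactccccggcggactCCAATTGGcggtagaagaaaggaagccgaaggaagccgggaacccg
Psmb10, chr8:105938343-105938642, minus strand: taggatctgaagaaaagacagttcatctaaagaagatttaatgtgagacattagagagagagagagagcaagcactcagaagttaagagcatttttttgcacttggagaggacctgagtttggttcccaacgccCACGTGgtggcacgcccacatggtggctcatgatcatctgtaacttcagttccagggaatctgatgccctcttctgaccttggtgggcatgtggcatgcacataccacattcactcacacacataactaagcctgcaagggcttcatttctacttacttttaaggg
Psme1, chr14:55578244-55578543, plus strand: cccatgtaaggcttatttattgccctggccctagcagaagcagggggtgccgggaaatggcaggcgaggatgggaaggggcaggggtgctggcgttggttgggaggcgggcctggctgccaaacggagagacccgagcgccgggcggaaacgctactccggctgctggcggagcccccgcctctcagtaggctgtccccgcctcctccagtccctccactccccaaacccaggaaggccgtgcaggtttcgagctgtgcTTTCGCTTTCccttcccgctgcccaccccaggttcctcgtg

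Psmb5 holds TGACNNNGC at base 204 of its window and Psmb6 at base 242, counted from the first base shown. Psmd14 holds CCAAT at base 92 and, as 2 overlapping matches on opposite strands, at bases 255 and 258. Psmb10 holds CACGTG at base 135, and Psme1 holds the interferon response element core, on the other strand, at base 260. Windows were found for 42 of the 50 members, and 25 of the 31 constitutive subunits. TGACNNNGC stood in 4 of these 25 genes (16%) against 14% of the 27025 genes with a window, CCAAT in 10 (40% against 41.1%), CACGTG in 1 (4% against 8.09%) and the interferon response element core in 2 (8% against 3.99%). The shares of TGACNNNGC and CCAAT were near those of all genes, and those of the other motifs rest on 1 and 2 genes. The 7 alpha ring genes held CCAAT in 5 cases, and Psme2 held none of the motifs.

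In untreated WT cells the 31 constitutive subunits were expressed within a narrow range. TPM are per transcript length, so genes can be compared: the lowest mean level was that of the alpha ring subunit Psma2 (98.8 plain TPM) and the highest that of the catalytic subunit Psmb6 (348), 3.52-fold apart, with a median of 190. Psma2 was the lowest of the 31 in all 7 groups. Psmb6 was the highest at 0 h and 24 h in both genotypes, and the alpha ring subunit Psma7 at 72 h and 144 h. The highest and lowest were 3.81-fold apart in untreated DKO cells and 4.12-fold to 4.57-fold apart under mTORi. Together the 31 genes made up 0.614% of all TPM in WT and 0.668% in DKO cells at 0 h.

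The question asked of each time point was whether proteasome genes fell with mTORi, and whether they fell more than the transcriptome. The summed spike-in normalized level of the 31 subunits was 12957 and 12983 TPM in the replicates of WT 0 h, 6207 and 7428 at 24 h, 7999 and 6122 at 72 h, then 5122 and 4603 at 144 h. Every treated WT library lay below both untreated ones, and the means were 0.526, 0.544 and 0.375 of the 0 h level. In DKO cells the sum was 17813 and 16692 at 0 h, 9628 and 6319 at 24 h, then 13021 and 9652 at 72 h, and the means came to 0.462 and 0.657 of the untreated level. The treated DKO libraries were likewise all below the untreated ones.

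The same sums were also lower as a share of the RNA. In plain TPM they were 6137 and 6150 at WT 0 h, 4329 and 4007 at 24 h, 4842 and 4108 at 72 h, then 4785 and 4603 at 144 h. In DKO cells they were 6328 and 7028 at 0 h, 4307 and 4656 at 24 h, then 5140 and 5588 at 72 h. No treated library reached an untreated one of its genotype on either scale. The share was lowest at 24 h, at 0.678 of the 0 h mean in WT and 0.671 in DKO cells, and was 0.728 and 0.803 at 72 h and 0.764 at WT 144 h. Set against the 0 h library of the same replicate number, the plain ratio at 72 h was 0.789 and 0.668 in WT and 0.812 and 0.795 in DKO cells.

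**Figure D1:**
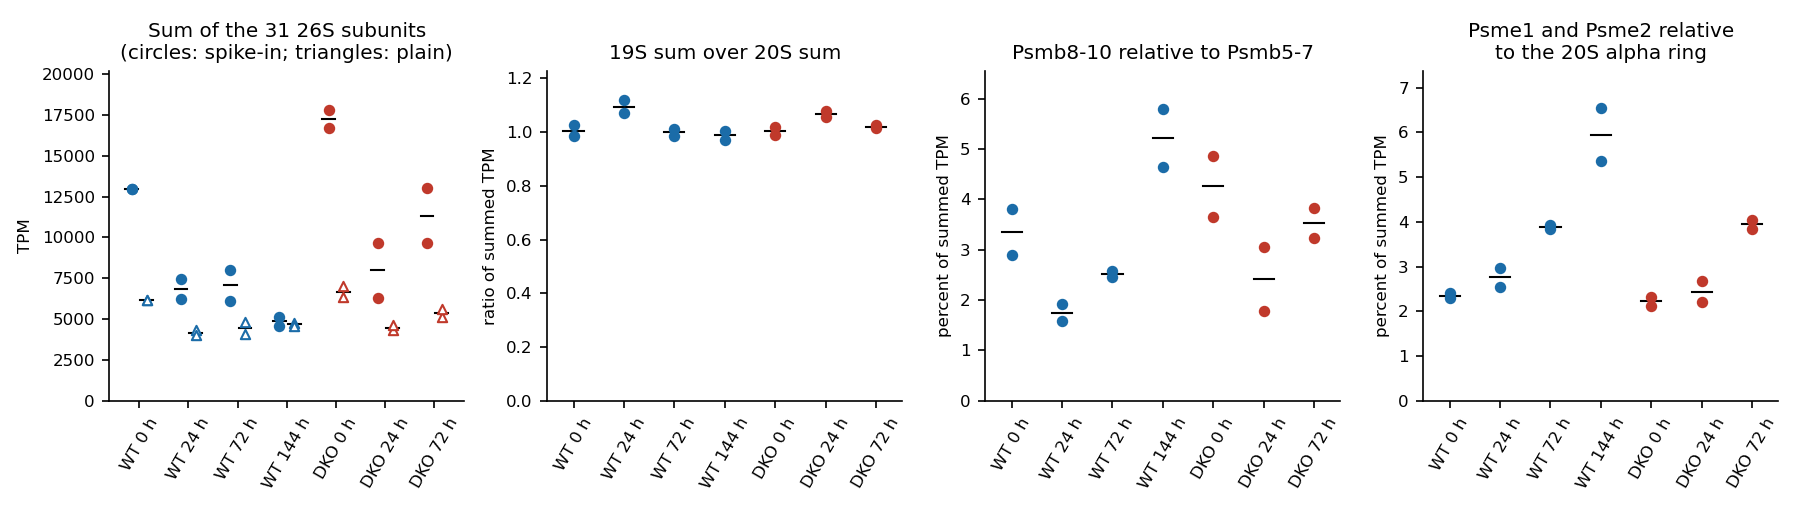
Sums and within-library ratios of proteasome genes in each of the 14 libraries (WT blue, DKO red, bar: mean of 2). The summed TPM of the 31 26S subunits, on the spike-in and plain scales, was lower in every treated library than at 0 h, the ratio of the 19S to the 20S sum stayed between 0.97 and 1.12, and Psme1 and Psme2 went from 2.29 and 2.41% of the alpha ring at WT 0 h to 6.53 and 5.37% at 144 h.

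Core and regulatory particle moved together. The summed 19S subunits stood to the summed 20S subunits at 1.03 and 0.986 in WT 0 h, and over all 14 libraries this ratio ran only from 0.971 (WT 144 h) to 1.12 (WT 24 h). At 24 h it was 1.07 and 1.12 in WT and 1.08 and 1.06 in DKO cells, in each case above both 0 h libraries (0.990 and 1.02 in DKO). A sum over genes that share a library has no further replication than the 2 libraries of a group.

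Gene by gene, limma was fitted over all 18232 genes with Benjamini-Hochberg adjustment, and a call means an adjusted p below 0.05. On the spike-in scale 21 of the 31 subunits fell in WT cells at 24 h, where 8.73% of all genes fell, and the median log2 fold change was −0.99 against −0.33 over all genes. At 72 h 17 of the 31 fell (7.6% of all genes), with a median of −0.93 against −0.33. Without the filter on low values, which took the genes tested to 38890, limma called 8 of the 31 lower at 24 h and 0 at 72 h, beside 2.34% and 1.64% of all genes. At 144 h all 31 fell, beside 50.5% of all genes, with a median of −1.44 against −0.83. In DKO cells 28 of 31 fell at 24 h (18.7% of all genes), with a median of −1.12 against −0.49. At DKO 72 h none was called, where 2.95% of all genes fell, although 19 had an unadjusted p under 0.05 in limma, as did 19.7% of all genes, and the median was −0.63 against −0.12. No constitutive subunit was called higher in any of the 5 comparisons, in which 1.25%, 0.697%, 0.461%, 0.505% and 0.713% of all genes rose. Each of the 31 lay below the median of all genes in all 5. The log2(TPM + 1) transform understates changes of low genes. Medians and shares over all genes are therefore not those of genes at the level of these subunits.

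Replicate numbers were taken to mark libraries of a genotype that were processed in parallel, which the study does not state for the numbers themselves. With the replicate block within each genotype, limma called 27, 30 and 31 subunits lower at 24, 72 and 144 h in WT, where 25.7%, 25.4% and 66.3% of all genes fell. It called 31 lower at 24 h and 16 at 72 h in DKO cells (38.1% and 13.2% of all genes). None was called higher with the block, where 4.48%, 2.85% and 1.05% of all genes rose in WT and 1.95% and 5.34% in DKO cells.

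In plain TPM 26 subunits fell in WT at 24 h (14.1% of all genes), 27 at 72 h (11.4%) and 21 at 144 h (11.7%). In DKO cells 26 fell at 24 h (13.3%) and 15 at 72 h (9.06%). The medians were −0.62, −0.50 and −0.42 in WT and −0.55 and −0.33 in DKO cells, while the median of all genes lay between −0.01 and 0.14. The replicate block gave 27, 27 and 25 in WT and 29 and 22 in DKO cells (17.7%, 15.2%, 15.6%, 16.6% and 12.3% of all genes).

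With 1 library left out, 30 or 31 subunits were called lower at WT 144 h on the spike-in scale and 20 to 27 at WT 24 h in plain TPM. The other counts rested on single libraries. On the spike-in scale, without either WT 0 h library the count in WT fell to 3 or 2 at 24 h and to 0 at 72 h, without WT 24 h replicate 1 to 2 and replicate 2 to 11 at 24 h, and without WT 72 h replicate 1 to 3 and replicate 2 to 0 at 72 h. Without either WT 144 h library 11 were called at WT 72 h, and without either DKO 24 h library 28 at WT 72 h and 12 at DKO 72 h. The DKO 24 h count fell to 7, 17 and 10 without DKO 0 h replicate 1, DKO 0 h replicate 2 and DKO 24 h replicate 2. The median stayed between −0.86 and −1.08 at WT 24 h, −0.73 and −1.10 at WT 72 h, −1.34 and −1.52 at WT 144 h, −0.82 and −1.43 at DKO 24 h and −0.41 and −0.87 at DKO 72 h. In plain TPM the count at WT 72 h fell from 27 to 14 or 15 without a WT 0 h library and to 10 without WT 72 h replicate 2, and at WT 144 h from 21 to 12 or 10 without WT 0 h replicate 1 or 2 and to 13 or 6 without WT 144 h replicate 1 or 2. It fell from 26 to 17 at DKO 24 h without DKO 0 h replicate 2, and from 15 to 5, 4 and 9 at DKO 72 h without DKO 0 h replicate 2, DKO 72 h replicate 1 and DKO 72 h replicate 2.

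**Figure D2:**
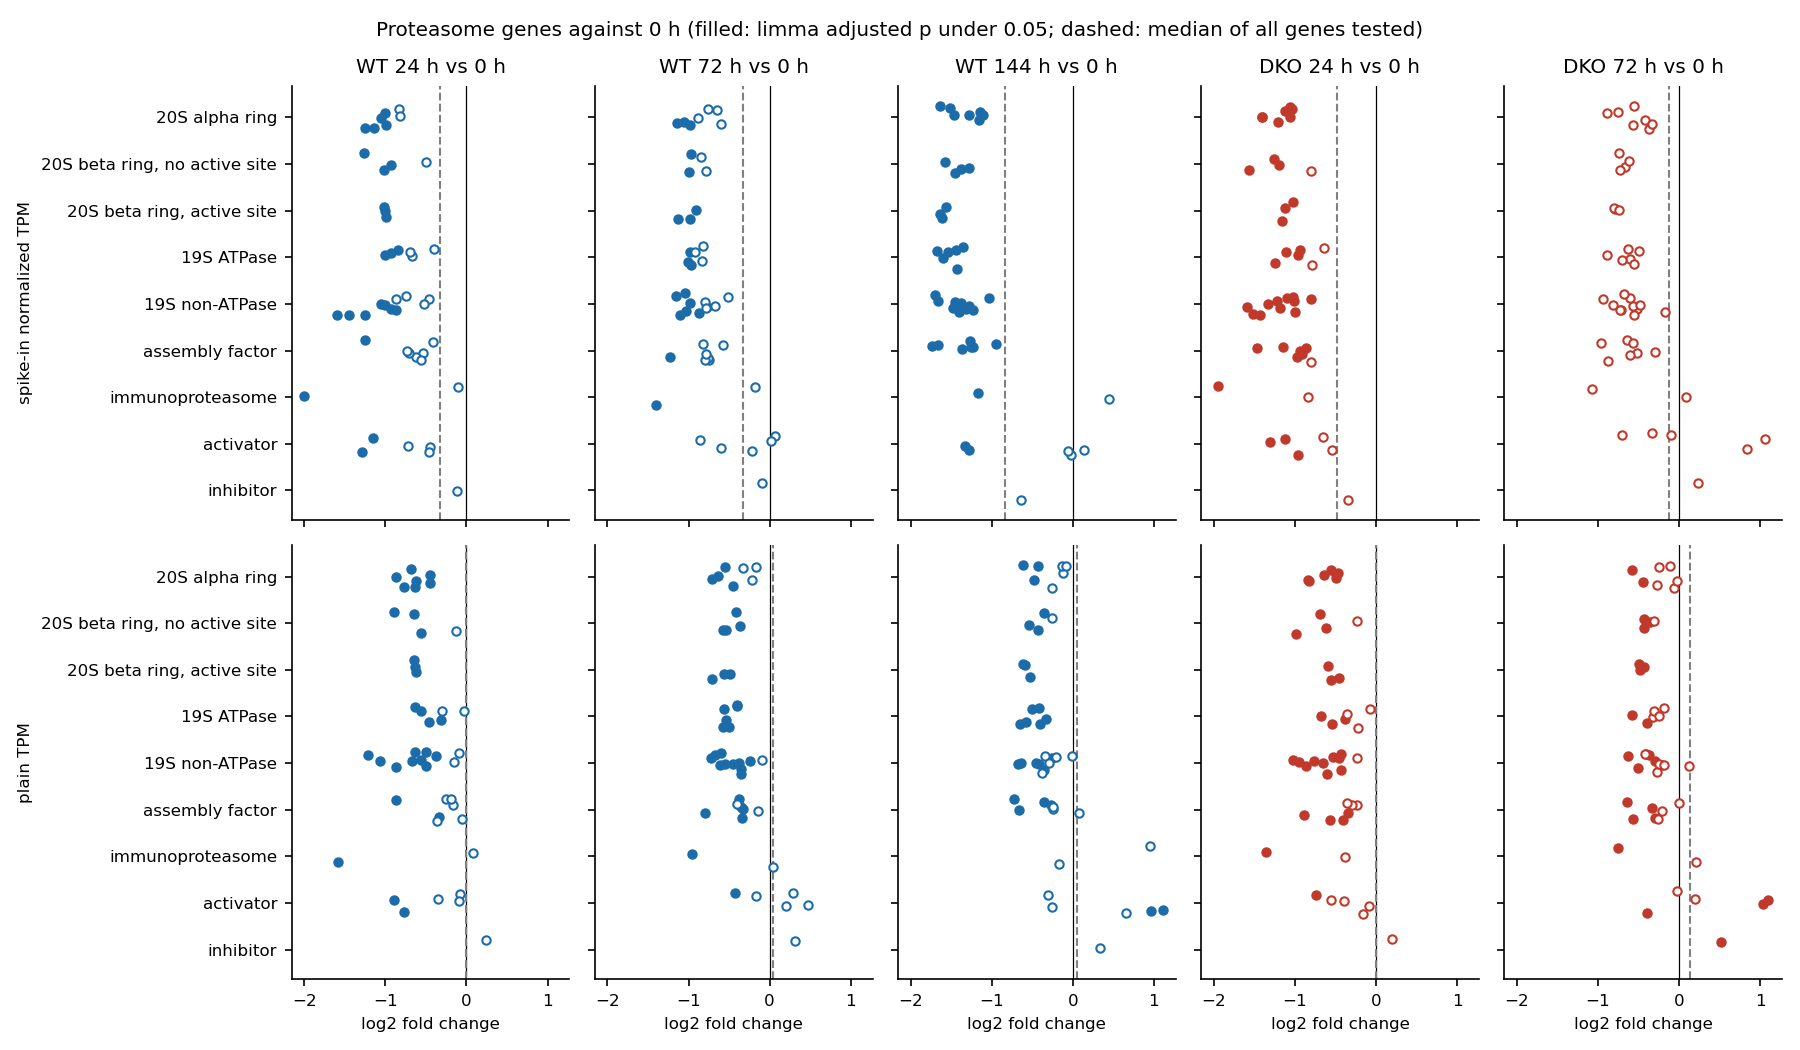
Log2 fold change against 0 h of the tested proteasome genes by class (points: genes, WT blue, DKO red), on the spike-in scale above and in plain TPM below. Filled points have a limma adjusted p under 0.05 and the dashed line is the median of all 18232 genes. The 26S classes lie left of the dashed line in each panel, and activator and immunoproteasome genes are spread more widely, to both sides of it at WT 144 h and DKO 72 h.

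The alpha ring has 7 genes. On the spike-in scale 5, 3 and 7 of them fell in WT at 24, 72 and 144 h, where 8.73%, 7.6% and 50.5% of all genes fell. In plain TPM all 7 fell at 24 h, 4 at 72 h and 3 at 144 h, beside 14.1%, 11.4% and 11.7% of all genes. Psma2 fell at all 3 times in plain TPM (−0.87 ± 0.10, −0.71 ± 0.10 and −0.62 ± 0.10, log2 ± SE, limma adjusted p 0.00022, 0.001 and 0.0018). Psma7 fell at 24 h (−0.62, adjusted p 0.0061, and 0.0544 without WT 24 h replicate 2) and was at −0.22 and −0.08 at 72 and 144 h, where it did not pass the test. Of the 4 beta subunits without an active site, 3, 4 and 3 fell in WT in plain TPM, and Psmb3 had the lowest value at 24 h in both genotypes (−0.89 in WT and −0.99 in DKO cells).

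The catalytic subunits Psmb5, Psmb6 and Psmb7, which cut after hydrophobic, acidic and basic residues, were lower in every treated group. Psmb5 had 208 and 234 spike-in normalized TPM at WT 0 h, 94.3 and 127 at 24 h, 111 and 89.7 at 72 h, then 76.3 and 64.2 at 144 h, and in DKO cells 290 and 249, then 162 and 106, then 166 and 145. In both genotypes every treated library was below the untreated ones. Over all genes such a separation on the spike-in scale was found for 47.8%, 55.3% and 82.1% at WT 24, 72 and 144 h. It was found for 46.3% and 30.1% at DKO 24 and 72 h. The log2 fold change of Psmb5 in WT was −1.0 ± 0.27, −1.14 ± 0.27 and −1.64 ± 0.27 (SE, limma adjusted p 0.024, 0.017 and 0.00028). The call at 24 h was lost without either WT 0 h library or WT 24 h replicate 1 (adjusted p up to 0.278), and that at 72 h without any 1 of the 4 WT 0 h and 72 h libraries (up to 0.235).

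Psmb6 had 753 and 716 spike-in normalized TPM at WT 0 h, 340 and 387 at 24 h, 441 and 310 at 72 h, then 260 and 219 at 144 h, and in DKO cells 994 and 993, then 506 and 390, then 617 and 529. Psmb7 had 587 and 598, 276 and 319, 360 and 274, and 216 and 187 in WT, and 932 and 870, 506 and 338, and 611 and 474 in DKO cells. Neither gene's treated and untreated libraries overlapped within a genotype. Depending on the comparison, 30.1% to 82.1% of all genes were lower without overlap on the spike-in scale. In plain TPM all 3 catalytic subunits fell in all 5 comparisons, by 0.62 to 0.64 on the log2 scale at WT 24 h and by 0.53 to 0.62 at WT 144 h. Over all genes 14.1%, 11.4% and 11.7% fell in plain TPM in WT and 13.3% and 9.06% in DKO cells. These plain calls held with any 1 library left out for Psmb5 in WT and for Psmb7 at 24 h in both genotypes. The others were lost in at least 1 case, and that of Psmb6 at DKO 72 h was made in only 4 of 14 (adjusted p up to 0.287).

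The 6 ATPases of the 19S base fell together at the late time. In plain TPM 4, 6 and 6 of them fell in WT at 24, 72 and 144 h, and 3 and 2 in DKO cells at 24 and 72 h, beside 14.1%, 11.4% and 11.7%, and 13.3% and 9.06%, of all genes. Psmc4 had the lowest value of the 6 at each time on both scales, with −0.63, −0.58 and −0.65 in plain TPM in WT (adjusted p 0.00078, 0.0018 and 0.00094). Psmc3 was the 26S subunit nearest to no change at 24 h, at −0.03 in WT and −0.07 in DKO cells in plain TPM, and it fell in plain TPM at WT 72 h (−0.40, adjusted p 0.039), a call made in only 5 of 14 cases with 1 library left out.

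Among the 11 non-ATPase subunits, the deubiquitinase of the lid and its partner fell most at 24 h. Psmd14, which removes ubiquitin chains from the substrate, changed by −1.60 ± 0.28 (log2) in WT and −1.59 ± 0.28 in DKO cells on the spike-in scale (SE, limma adjusted p 0.0018 and 0.0012), and −1.22 and −1.02 in plain TPM. Psmd7, with which it pairs in the lid, had −1.45 ± 0.27 and −1.51 ± 0.27 (adjusted p 0.0029 and 0.0013). At WT 144 h in plain TPM Psmd14 was at −0.63 and Psmd7 at −0.38, the latter not past the test. Relative to the scaffold subunit Psmd2, Psmd14 was at 63.8 and 68.0% at WT 0 h, 41.8 and 41.3% at 24 h, 60.4 and 56.5% at 72 h, then 54.2 and 59.4% at 144 h. In DKO cells it was at 66.7 and 69.4%, then 54.5 and 47.9%, then 62.7 and 62.9%. The treated libraries were below the untreated ones of their genotype, and the 24 h libraries were the lowest.

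At 144 h the lid subunit Psmd13 had the lowest value among the 26S genes. It had 227 and 233 spike-in normalized TPM at WT 0 h, 89.8 and 103 at 24 h, 121 and 94.2 at 72 h, then 73.7 and 66.7 at 144 h. In DKO cells it had 319 and 302, then 141 and 93.2, then 195 and 134. No treated library reached an untreated one, as was so for 30.1% to 82.1% of all genes, depending on the comparison. The change of Psmd13 at WT 144 h was −1.70 ± 0.28 (log2 ± SE, limma adjusted p 0.00023). Psmd13 overlaps Gm15542 on the same strand, which had a mean of 34.3 plain TPM, and the opposite-strand gene Sirt3, so its reads could be shared. The base subunit Psmd1 fell least at 144 h, by 1.03 on the log2 scale (not called without WT 144 h replicate 2, adjusted p 0.0625), and was at −0.00 in plain TPM.

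The 7 assembly factors are chaperones that build the core or the base and then leave. In WT 1, 1 and 7 of them fell on the spike-in scale and 2, 5 and 4 in plain TPM, and in DKO cells 6 and 0, and 4 and 4. Over all genes 8.73%, 7.6% and 50.5% fell in WT on the spike-in scale and 14.1%, 11.4% and 11.7% in plain TPM, and 18.7% and 2.95%, and 13.3% and 9.06%, in DKO cells. Psmg4, a core assembly chaperone, had the lowest log2 fold change of all members at WT 144 h (−1.74 ± 0.28, SE, adjusted p 0.00023, and −0.73 in plain TPM, a call lost without WT 0 h replicate 1 or WT 144 h replicate 2). It had 97.1 and 95.8 spike-in normalized TPM at WT 0 h, 58.2 and 57.3 at 24 h, 60.5 and 48.2 at 72 h, then 32.3 and 24.5 at 144 h. The 144 h libraries lay below those of every other WT group. Psmg3, its partner, was called on both scales at all 3 times in WT, although on the spike-in scale the 24 h call was lost without either WT 0 h library or WT 24 h replicate 1 and the 72 h call without any 1 of the 4 libraries compared (adjusted p up to 0.149 and 0.225). It had 54.0 and 49.6, 19.1 and 23.5, 23.1 and 20, and 17.1 and 14.4 spike-in normalized TPM. It had 76.5 and 68.1 at DKO 0 h, 32.4 and 20.1 at 24 h, then 42.3 and 31.8 at 72 h. Again no treated library reached an untreated one, as for 30.1% to 82.1% of all genes, depending on the comparison.

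The immunoproteasome subunits did not follow one course. Psmb10, which replaces Psmb7, had 43.8 and 56.0 spike-in normalized TPM at WT 0 h, 10.9 and 12.4 at 24 h, 21.1 and 15.6 at 72 h, then 25.3 and 18.3 at 144 h, and in DKO cells 104 and 75.5, then 34.1 and 14.4, then 49.3 and 34.9. It was lowest at 24 h in both genotypes. No treated library overlapped with 0 h, as for 30.1% to 82.1% of all genes that were lower, depending on the comparison. At 24 h it had the lowest log2 fold change of all members, −2.0 ± 0.36 in WT and −1.94 ± 0.36 in DKO cells (SE, limma adjusted p 0.0021 and 0.0016), and −1.59 and −1.36 in plain TPM. At WT 144 h it was at −1.17 ± 0.36 (adjusted p 0.013) on the spike-in scale and at −0.17 in plain TPM, where it did not pass the test. The spike-in call at 144 h was lost without replicate 2 of WT 0 h or of WT 144 h (adjusted p up to 0.122). As a share of Psmb7, Psmb10 was 7.46 and 9.36% at WT 0 h, 3.94 and 3.88% at 24 h, 5.84 and 5.69% at 72 h, then 11.7 and 9.79% at 144 h. The WT 144 h libraries were above, and the 24 and 72 h libraries below, both untreated ones.

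Psmb8 and Psmb9, which replace Psmb5 and Psmb6, were scarce. They lie close together in the MHC region, with Tap1 between them (chr17:34197721-34201454 and chr17:34181988-34187764, mm10). Psmb8 had 0.137 and 0.273 spike-in normalized TPM at WT 0 h, 0.0229 and 0.0644 at 24 h, 0.181 and 0.294 at 72 h, then 3.50 and 1.62 at 144 h. In DKO cells it was listed at 0 in 1 library each of 0 and 24 h and reached 0.0434 and 0.0452 in the other, with 0.480 and 0.127 at 72 h. The WT 144 h libraries were above all 12 others. Psmb8 was under the level limit and was not tested, and no depth is given with TPM, so no counting error can be put on these values.

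Psmb9 had 0.878 and 2.58 spike-in normalized TPM at WT 0 h, 0.278 and 3.56 at 24 h, 1.18 and 1.42 at 72 h, then 3.21 and 1.94 at 144 h, and in DKO cells 4.26 and 1.45, then 1.77 and 0.450, then 3.54 and 2.20. Every treated group overlapped with 0 h of its genotype, while the WT 72 h libraries lay below those of WT 144 h and DKO 72 h, and the DKO 24 h libraries below those of DKO 72 h. Psmb9 passed the test in no comparison. Psmb9 overlaps Tap1 on the opposite strand (mean of 2.11 plain TPM). Summed, the 3 immunoproteasome genes were 2.89 and 3.80% of Psmb5 to Psmb7 at WT 0 h, 1.58 and 1.92% at 24 h, 2.46 and 2.57% at 72 h, then 5.79 and 4.65% at 144 h, with Psmb10 the largest part in every library. In DKO cells the share was 4.87 and 3.65%, then 3.06 and 1.78%, then 3.83 and 3.24%.

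The activators did not move as one. Psme3, the nuclear PA28 gamma subunit, had 321 and 328 spike-in normalized TPM at WT 0 h, 130 and 163 at 24 h, 207 and 154 at 72 h, then 137 and 128 at 144 h, and in DKO cells 456 and 408, then 222 and 136, then 301 and 231. All treated libraries were below the untreated ones of their genotype, as for 30.1% to 82.1% of all genes, depending on the comparison. It fell at WT 24 h and 144 h (−1.15 ± 0.28 and −1.29 ± 0.28, SE, limma adjusted p 0.013 and 0.0015) and at DKO 24 h (−1.31 ± 0.28, adjusted p 0.0038). The WT 24 h call was lost without either WT 0 h library or WT 24 h replicate 1 (adjusted p up to 0.154), and the DKO 24 h call without DKO 0 h replicate 1 (0.0566). In plain TPM it fell at 24 and 72 h in both genotypes and was at −0.26 at WT 144 h (adjusted p 0.068). The plain calls at 72 h were lost without replicate 2 of WT 0 h or of WT 72 h, and without DKO 0 h replicate 2 or DKO 72 h replicate 1 (adjusted p up to 0.082 and 0.109).

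Psme4, the PA200 activator, had 229 and 323 spike-in normalized TPM at WT 0 h, 152 and 255 at 24 h, 167 and 193 at 72 h, then 106 and 110 at 144 h, and in DKO cells 358 and 308, then 302 and 148, then 333 and 210. Its 24 h libraries overlapped with 0 h in WT but not in DKO cells, and at 72 h the overlap was in DKO cells. Psme4 fell at WT 144 h on the spike-in scale (−1.33 ± 0.34, SE, adjusted p 0.0041, and 0.0578 without WT 0 h replicate 2) and was at −0.30 in plain TPM, not past the test.

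Psme1 and Psme2 encode the alpha and beta subunits of the cytosolic PA28 ring, which interferon induces, and lie close together (chr14:55578123-55581529 and chr14:55587441-55591113, mm10). Psme1 had 42.8 and 40.6 spike-in normalized TPM at WT 0 h, 29.1 and 31.7 at 24 h, 41.9 and 30.6 at 72 h, then 47.9 and 35.0 at 144 h, and in plain TPM 20.3 and 19.2, 20.3 and 17.1, 25.3 and 20.6, and 44.7 and 35.0. The 144 h libraries overlapped with 0 h on the spike-in scale and lay above all other WT libraries in plain TPM. Its log2 fold change at 144 h was −0.02 ± 0.29 on the spike-in scale (SE, adjusted p 0.95) and 0.97 in plain TPM (adjusted p 0.0023). That rise in plain TPM was called whichever 1 of the 14 libraries was left out. In DKO cells Psme1 had 66.0 and 52.9 spike-in normalized TPM at 0 h, 35.1 and 25.4 at 24 h, then 58.7 and 51.6 at 72 h. The 24 h libraries were below the others, and Psme1 fell there (−0.96 ± 0.29, SE, adjusted p 0.027), a call that was lost without either DKO 0 h library or DKO 24 h replicate 2 (adjusted p up to 0.247).

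Psme2 had 26.6 and 33.7 spike-in normalized TPM at WT 0 h, 12.8 and 10.7 at 24 h, 37.6 and 26.4 at 72 h, then 35.5 and 30.7 at 144 h. In DKO cells it had 31.8 and 28.3 at 0 h, 13.6 and 12.8 at 24 h, then 66.2 and 44.8 at 72 h. In both genotypes it was lowest at 24 h, and at DKO 72 h both libraries lay above 0 h, as for 15.7% of all genes. It fell at 24 h in WT (−1.29 ± 0.30, SE, adjusted p 0.011) and DKO cells (−1.13 ± 0.30, adjusted p 0.015). The WT call was lost without WT 0 h replicate 2 or either WT 24 h library (adjusted p up to 0.162), and the DKO call without either DKO 0 h library or DKO 24 h replicate 2 (up to 0.143). At WT 144 h it was at 0.14 ± 0.30 on the spike-in scale (adjusted p 0.72), and it rose by 1.11 on the log2 scale in plain TPM (adjusted p 0.0049). At DKO 72 h it was at 0.84 ± 0.30 (adjusted p 0.12), at an adjusted p of 0.017 with the replicate block, and it rose by 1.10 in plain TPM (adjusted p 0.0061). Both rises in plain TPM were called whichever 1 of the 14 libraries was left out. In plain TPM 15.6% of all genes rose at WT 144 h and 17.2% at DKO 72 h.

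Relative to the alpha ring to which PA28 binds, Psme1 and Psme2 together were 2.29 and 2.41% at WT 0 h, 2.97 and 2.55% at 24 h, 3.92 and 3.85% at 72 h, then 6.53 and 5.37% at 144 h. In DKO cells they were 2.33 and 2.11%, then 2.20 and 2.68%, then 3.84 and 4.05%. The values at 72 h and 144 h were above all values at 0 and 24 h, in both genotypes. Within the pair Psme1 was 161 and 120% of Psme2 at WT 0 h and 227 and 297% at 24 h, and 208 and 187% and then 259 and 198% in DKO cells, where these groups overlapped. It was 111 and 116% at WT 72 h, below both 0 h libraries, and 135 and 114% at 144 h, which overlapped with 0 h. At DKO 72 h it was 88.7 and 115%, below both untreated libraries. Psme2b, a near copy of Psme2 with which reads could be shared, had 3.25 and 3.44 spike-in normalized TPM at WT 0 h, 1.76 and 1.53 at 24 h, 4.56 and 2.48 at 72 h, then 3.03 and 3.31 at 144 h, and in DKO cells 2.02 and 3.35, then 2.30 and 0.876, then 5.64 and 7.54. The DKO 72 h libraries were the highest of all. There Psme2b was at 1.06 ± 0.37 (SE, adjusted p 0.11, and 0.024 with the replicate block) and rose by 1.03 in plain TPM (adjusted p 0.02). Without DKO 0 h replicate 1 or DKO 72 h replicate 2 the last call was lost (adjusted p up to 0.144).

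**Figure D3:**
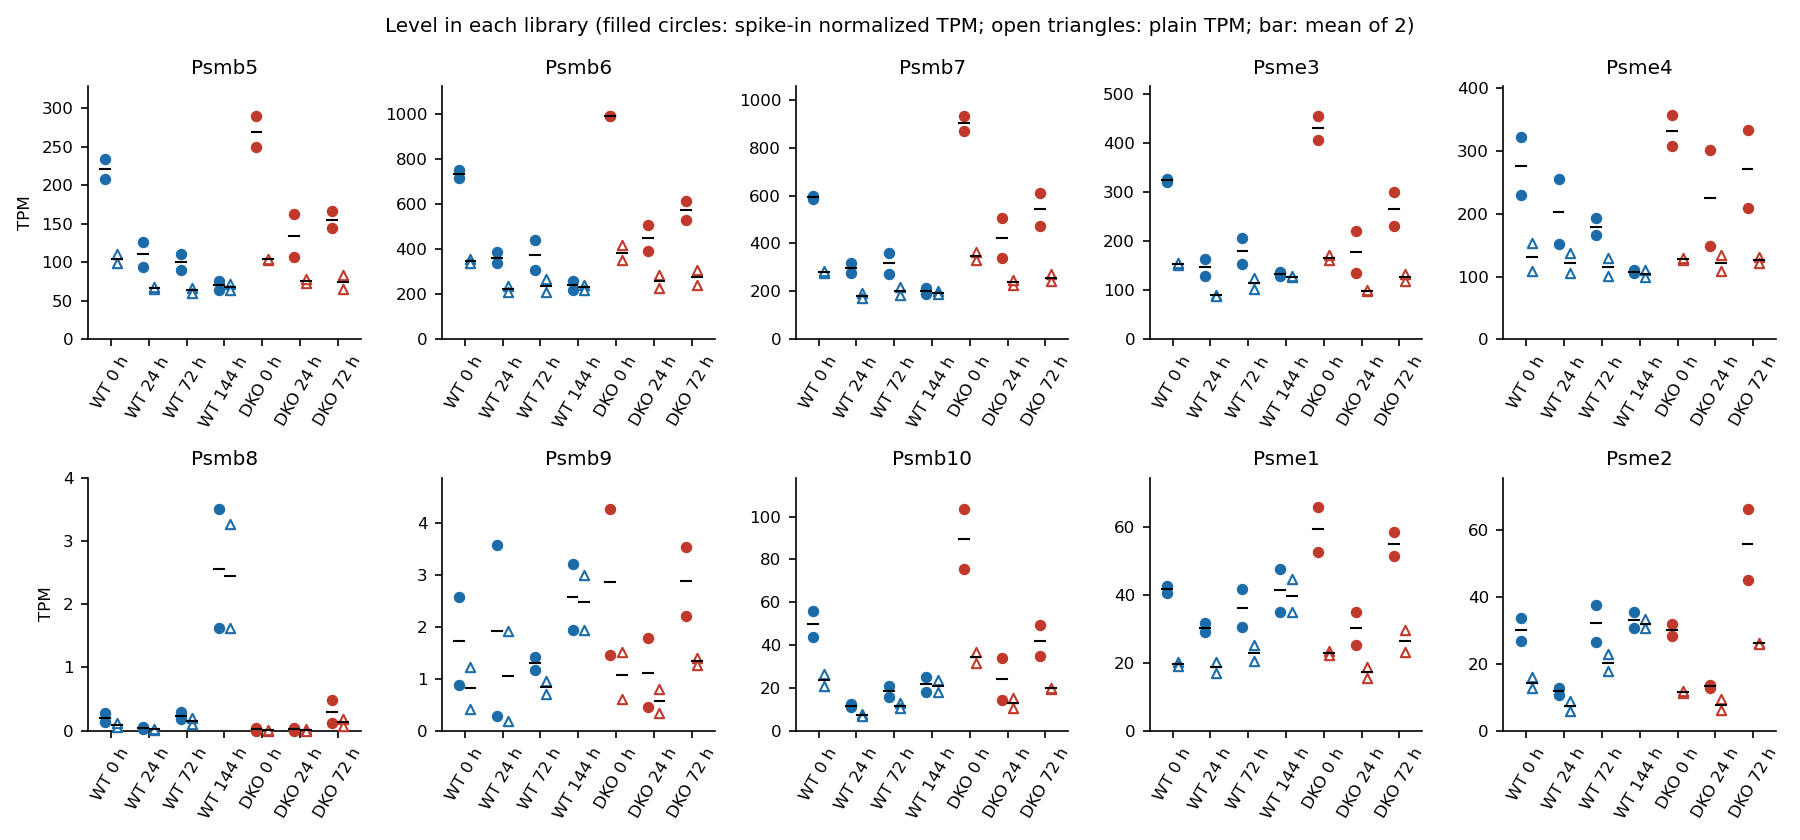
Level of the catalytic, activator and immunoproteasome genes in each library (WT blue, DKO red, circles: spike-in normalized TPM, triangles: plain TPM, bar: mean of 2, each panel with its own linear axis from 0). Psmb5 to Psmb7 and Psme3 are lower in every treated group, Psmb8 is raised in the WT 144 h libraries (3.50 and 1.62 spike-in normalized TPM), and Psme2 dips at 24 h and returns.

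The inhibitor and the testis subunit are not part of the constitutive 26S proteasome. Psmf1, which encodes the proteasome inhibitor PI31, was not called on the spike-in scale in any comparison against 0 h (−0.12, −0.09 and −0.63 ± 0.31 in WT, adjusted p 0.85, 0.88 and 0.091, against 0.24, 0.31 and 0.34 in plain TPM), and with the replicate block it fell at WT 144 h (adjusted p 0.015). In plain TPM it rose at DKO 72 h (0.51, adjusted p 0.014), a call that was lost without DKO 0 h replicate 1 or either DKO 72 h library. Psma8, the alpha subunit of the testis proteasome, was present in these cells at 16.4 to 74.5 spike-in normalized TPM. It fell at WT 144 h on the spike-in scale (−1.02 ± 0.29, adjusted p 0.009, and up to 0.0631 without WT 0 h replicate 1 or either WT 144 h library) and was at −0.03 in plain TPM, where it rose at WT 72 h (0.56, adjusted p 0.0096, with 12.6% of all genes higher) and DKO 72 h (0.44, adjusted p 0.028). The first of these rises was lost without WT 0 h replicate 2 or WT 72 h replicate 1, and the other without DKO 0 h replicate 1 or either DKO 72 h library (adjusted p up to 0.06 and 0.164). As a share of Psma7 it was 6.22 and 5.35% at WT 0 h, 10.9 and 10.2% at 24 h, 9.01 and 11.4% at 72 h, then 5.52 and 6.45% at 144 h, which overlapped with 0 h. In DKO cells it was 6.62 and 8.25%, then 12.8 and 10.5%, then 10.4 and 10.2%. Psmb11, the subunit of the thymus proteasome, stayed at or under 0.305 spike-in normalized TPM.

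The DKO cells were compared with WT at the same time to ask whether loss of the TET enzymes changed these levels. On the spike-in scale no member was called at 0, 24 or 72 h with limma, where at most 0.302% of all genes were called higher and at most 0.0329% lower. Of the 31 subunits 5, 0 and 22 had an unadjusted p under 0.05 in limma, as did 8.35%, 4.14% and 23.0% of all genes, and the median log2 differences of DKO minus WT were 0.38, 0.25 and 0.70 beside 0.29, 0.10 and 0.49 over all genes. Both DKO libraries were above both WT libraries for 28 of the 31 at 0 h, as for 52.9% of all genes, for 4 at 24 h (11.1%) and for 29 at 72 h (62.6%). As plain TPM they were above for 15, 13 and 20 of the 31 (24.4%, 21.6% and 39.3% of all genes). They were below for 3, 4 and 2 (16.6%, 18.8% and 15.1%). In plain TPM no member was called at 0 h, where 0.176% of all genes were lower and 0.422% higher, or at 24 h (0.79% and 0.581%). The plain medians were 0.09, 0.15 and 0.28, beside 0.018, 0.014 and 0.11 over all genes. At 72 h Psmd1, Psmd3, Psmd12 and the assembly factor Psmg2 were called higher in DKO cells (0.51, 0.53, 0.51 and 0.45, limma adjusted p 0.03, 0.042, 0.034 and 0.04), while 3.17% of all genes were. These 4 were named after their values were seen, and with 1 of the 14 libraries left out at a time their calls were made in 9, 4, 8 and 4 of 14 cases, with an adjusted p of up to 0.173, 0.221, 0.2 and 0.218.

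At 72 h the largest differences on the spike-in scale were those of Psmb10 (1.15 ± 0.36, SE, adjusted p 0.14) and Psmd3 (0.94 ± 0.26, adjusted p 0.11), and the smallest were those of Psmb4 (0.22 ± 0.29) and the ubiquitin receptor Psmd4 (0.30 ± 0.28). Psmd3 had 243 and 195 spike-in normalized TPM at WT 72 h and 479 and 367 at DKO 72 h, without overlap. Psmb4 had 261 and 231 at WT 72 h and 357 and 228 at DKO 72 h, and Psmd4 had 241 and 191 and then 316 and 220. Both overlapped between the genotypes, and in plain TPM both differences were below 0 (−0.20 and −0.12).

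The responses to mTORi were then compared between the genotypes. For no member did the difference of the responses pass the test at 24 or 72 h on either scale, with 0 constitutive subunits at an unadjusted p under 0.05 on the spike-in scale in limma, and at most 1 gene of the 18232 was called in either direction (0.00548%). With the replicate block on the spike-in scale the 24 h difference passed for 8 genes below 0 and for 9 above it (0.0439% and 0.0494%), none of them a member. At 72 h limma with the block called 0 genes, and 684 had an unadjusted p under 0.05. The median difference over the 31 subunits, DKO response minus WT response, was −0.18 at 24 h and 0.26 at 72 h, beside −0.19 and 0.21 over all genes. Across the 31 genes the WT and DKO changes had a Pearson's r of 0.924 at 24 h and 0.769 at 72 h (Spearman's rho 0.916 and 0.681). This is a description across genes, which are not independent replicates and share their libraries.

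Of all members, the response at 72 h was higher in DKO cells by most for Psme2b (1.03) and Psme2 (0.77) on the spike-in log2 scale. The lowest differences were those of Psmg4 (−0.05) and Psmd8 (−0.03), and their sign turned when 1 library was left out (−0.33 to 0.23 and −0.23 to 0.16). Psmd8, a lid subunit, had 316 and 316 spike-in normalized TPM at WT 0 h and 211 and 160 at 72 h, and 493 and 442 and then 304 and 232 in DKO cells. In both genotypes the 72 h libraries lay below the 0 h ones, as did those of Psmg4 in DKO cells (118 and 133 at 0 h, 75.1 and 56.8 at 24 h, 82.8 and 55.8 at 72 h). At 72 h the same held for 55.3% of all genes in WT and 30.1% in DKO cells.

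**Figure D4:**
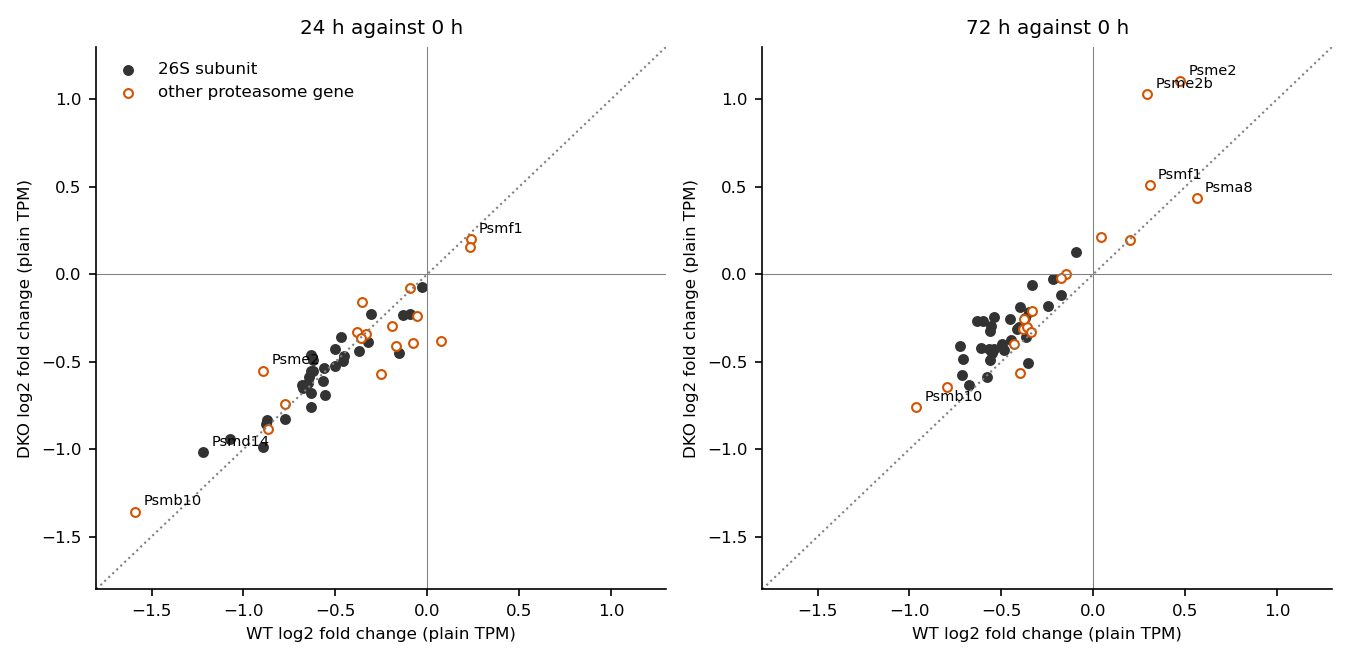
Log2 fold change against 0 h in plain TPM of each tested proteasome gene, in WT cells (horizontal axis) and DKO cells (vertical axis), at 24 h and 72 h (dotted line: equal change). The changes of the 31 26S subunits (filled) have a Pearson's r of 0.924 and 0.769 between the genotypes, which does not measure closeness to the line. Psmb10 is at the low end at both times and Psme2 and Psme2b are above the line at 72 h.

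Genes that work with the proteasome but have other names were read beside the members. Adrm1 and Sem1, 19S subunits outside the naming, both fell at WT 144 h on the spike-in scale (−1.16 and −1.13) and neither passed in plain TPM. Of 8 tested assembly and bound cofactors, 3, 3 and 6 fell in WT, among them Pomp, the maturation factor of the core (−1.35, −0.88 and −1.47), and the deubiquitinase Uchl5 (−1.66 at 144 h). The 8 shuttle and ubiquitin receptor genes gave 0, 0 and 8 calls, and the 5 genes of ubiquitin and its activating enzyme gave 0, 0 and 4. Over all genes 8.73%, 7.6% and 50.5% fell. The Pomp calls at 24 and 72 h were made in 12 and 4 of 14 cases with 1 library left out.

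Of 5 regulators of proteasome genes, 1, 0 and 3 fell in WT on the spike-in scale, beside 8.73%, 7.6% and 50.5% of all genes. Nfe2l1, which encodes the factor itself, was at −0.81, −0.63 and −1.22 (SE 0.28, adjusted p 0.069, 0.16 and 0.0022), and Ddi2, the protease that releases it, at −0.90, −0.75 and −1.16 (adjusted p 0.048, 0.1 and 0.0032), of which the 24 h call was made in only 4 of 14 cases with 1 library left out. Nfe2l2 fell at WT 144 h on the spike-in scale (−0.90, adjusted p 0.013, lost without any 1 of the 4 libraries compared) and was at 0.11 in plain TPM. In plain TPM Nfe2l1 fell at WT 24 h (−0.44, adjusted p 0.0021) and DKO 24 h (−0.47, adjusted p 0.0019), while Ngly1, which removes its sugar chains, rose (0.97 and 0.73, adjusted p 0.00096 and 0.0052), as 15.8% and 11.6% of all genes did. On the spike-in scale Ngly1 did not pass at either time (0.71 and 0.27, limma adjusted p 0.19 and 0.60) or at WT 144 h (−0.62, adjusted p 0.13). Its WT 144 h libraries were both below 0 h, as for 82.1% of all genes. Bach1, a repressor that competes with NFE2L2 for its sites, rose in plain TPM at WT 24 h (1.49, adjusted p 0.0018) and was at 1.20 on the spike-in scale, not past the test (adjusted p 0.064). Among genes of antigen processing, Irf1 and Erap1 rose at WT 144 h on the spike-in scale (0.87 and 1.08, adjusted p 0.018 and 0.011), B2m fell (−1.22, adjusted p 0.017), and Tap1 and Tapbp did not pass (−0.84 and 0.30). The calls of Irf1 and Erap1 were lost without either WT 0 h library or WT 144 h replicate 1, and that of B2m without any 1 of the 4 libraries compared (adjusted p up to 0.19, 0.126 and 0.0757). In plain TPM Irf1, Erap1 and Tapbp rose at WT 144 h (1.85, 1.55 and 1.25, adjusted p 0.00016, 0.00044 and 0.00044).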

How the data were processed

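Total RNA depleted of ribosomal RNA, with ERCC spike-in RNA, was sequenced in 14 libraries. The authors used cutadapt for trimming and STAR for alignment to mm10, quantified GENCODE genes with StringTie (cutadapt 2.4, STAR 2.7.3a and StringTie 2.0 per the processing notes), and deposited TPM, with no counts or depth. Whether the counting used strand is not given in the sources used here. TPM were summed per gene. The spike-in factor of each library was recovered as the median ratio of the authors' spike-in normalized TPM to the deposited TPM, over the first 1999 entries of a supplementary table and genes of at least 1 TPM.

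Values were transformed as log2(TPM + 1), so changes of low genes are understated. Genes averaging 1 or more on the spike-in scale were fitted with limma 3.58.1 in R 4.3.3, with all 7 groups in 1 fit, a trended prior and Benjamini-Hochberg adjustment (called under 0.05). The alternatives were plain TPM, a pseudocount of 0.1, no filter, the replicate block and leaving out each library. Plain TPM with the block or with a library left out was added after the data were seen. Replicate numbers pair libraries within a genotype, since the study's methods state that the time points of a replicate were processed in parallel. Deviations from group means correlated at 0.222 to 0.341 between time points within DKO and 0.0622 to 0.398 within WT, and 10 of 12 pairs between genotypes were below 0, so DKO was not paired with WT. The code was tested on simulated data.

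Per-library values are given, in the groups a result concerns, for Psmb5 to Psmb10, Psme1 to Psme4 (with Psme2b) and the 2 highest and 2 lowest members at WT 144 h, at DKO 72 h, between genotypes at 72 h and in the difference of responses at 72 h. Other members and related genes have log2 values, and further per-library values and ratios were chosen after the values were seen. The members and lists were chosen with earlier results of these data known. A gene of the antigen processing list is not reported here.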

Additional observations from a re-analysis of the deposited data

How the results depend on the processing

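In plain TPM the median log2 change of the 26S subunits was −0.62, −0.50 and −0.42 at WT 24, 72 and 144 h, −0.55 and −0.33 at DKO 24 and 72 h, and 0.091 and 0.28 for DKO against WT at 0 and 72 h, and the difference of the responses at 24 h changed sign to 0.016. Plain TPM called 27 subunits lower at WT 72 h, 15 at DKO 72 h and 3 higher in DKO at 72 h. Without the filter 8 fell at WT 24 h and 0 at WT 72 h (2.34% and 1.64% of all genes), and 8 single-gene calls were lost: Psmb5, Psmb7 and Psme3 at WT 24 h, Psmb5, Psmb6, Psmb7 and Psmb10 at WT 72 h and Psmb10 at WT 144 h (limma adjusted p 0.0505 to 0.106). With the replicate block 30 fell at WT 72 h and 16 at DKO 72 h, and 10 single-gene results passed the threshold that had not before. DKO against WT could not be fitted with the block. A pseudocount of 0.1 changed no call of the 57 single-gene results. The 30 counts and medians stayed within a set tolerance, so single calls within a count could still differ. In plain TPM the signs of Psmb9 at WT 24 and 72 h (0.075 and 0.045), of Psme1 at WT 72 and 144 h and DKO 72 h (0.20, 0.97 and 0.20) and of Psmb4 and Psmd4 between the genotypes at 72 h (−0.20 and −0.12) changed. The cause was not tested.

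With 1 library left out, its partner was assumed to vary like the other groups. The number of subunits called lower ran from 2 to 27 at WT 24 h, 0 to 28 at WT 72 h, 7 to 31 at DKO 24 h and 0 to 12 at DKO 72 h, and 0 to 10 were called higher in DKO at 72 h. In plain TPM it ran from 10 to 27 at WT 72 h, 6 to 22 at WT 144 h, 17 to 28 at DKO 24 h and 4 to 18 at DKO 72 h. The lowest plain counts were without WT 72 h replicate 2, WT 144 h replicate 2, DKO 0 h replicate 2 and DKO 72 h replicate 1. The median ran from −1.43 to −0.82 at DKO 24 h, from −0.088 to 0.50 for DKO against WT at 24 h and from −0.51 to 0.14 for the difference of the responses at 24 h. Signs also changed for Psmb9 (−1.02 to 0.82, −0.64 to 0.29 and −0.024 to 0.91 at WT 24, 72 and 144 h, and −0.47 to 0.64 at DKO 72 h), Psme1 (−0.43 to 0.0058, −0.24 to 0.19 and, at DKO 72 h, −0.26 to 0.057), Psme2 (−0.18 to 0.32 and −0.030 to 0.30 at WT 72 and 144 h), Psme4 at DKO 72 h (−0.66 to 0.0053), Psmb4 between the genotypes at 72 h (−0.11 to 0.54) and the responses of Psmg4 (−0.33 to 0.23) and Psmd8 (−0.23 to 0.16) at 72 h. TPM keep no depth, so no counting error can be given for low genes such as Psmb8 and Psmb9.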

Other observations

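Each recovered spike-in factor was 76 divided by a whole number from 27 to 76, within 0.000168 of that whole number, so the factors can take only steps, and 1 step changes all spike-in normalized values of a library by 1.32 to 3.7%.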
